A study of Mus musculus with 6 samples.

Results

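The early growth response genes Egr1, Egr2 and Egr3, the Krüppel-like factor genes Klf2, Klf3, Klf4, Klf6, Klf10 and Klf13, and Ier3 are described here across 3 culture conditions of mouse osteoclast precursors. These 10 genes were chosen by name, with earlier results of these data known, so the shares called below do not test the families. All 10 were found among the 24940 genes of the deposited expression table, each with 1 row. The precursors were primary bone marrow macrophages, labelled as coming from C57BL/6 mice 6 to 8 weeks of age, whereas the methods of the paper name ICR mice. All cultures received M-CSF at 30 ng/mL, which keeps macrophage precursors alive and growing. The -R cultures had nothing more, the +R cultures also received RANKL at 100 ng/mL, and the R+LE cultures received RANKL at 100 ng/mL with the methanol leaf extract (LE) of Abeliophyllum distichum at 10 μg/mL, each for 3 days. RANKL is the cytokine that turns these precursors into osteoclasts, the cells that resorb bone. There were 2 libraries for each condition, and nothing states whether they came from separate cultures or animals, so the p-values below measure only the spread between these libraries.

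EGR proteins are zinc finger transcription factors. Their genes are switched on within minutes of growth factor, cytokine or stress signals, largely through the ERK kinases, which act on serum response factor (SRF) and its ternary complex partners at CArG boxes in the promoters, and the transcripts usually decay soon after. KLF proteins are related zinc finger factors that bind GC-rich and CACCC sequences. Several are also early response genes, and KLF2 and KLF4 are known for roles in monocytes, macrophages and endothelium. Since the libraries were made after 3 days, the values describe levels at that time, not the first burst after RANKL.

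To show where such control sequences lie, upstream sequences of 4 members that represent the patterns below were taken from RefSeq promoter windows of mm10 (GRCm38.p6), which held a window for 7 of the 10 members. They run from 250 to 31 bases before the start site, on the strand of the gene. Capitals mark matches to 7 motifs, on either strand. These were the CArG box, the MEF2 site, the NF-κB site, the ETS core (CCGGAA), the EGR site (GCGNGGGCG), the AP-1 site (TGANTCA) and the core of the cAMP response element or CRE (TGACGT).

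Egr2 (chr10:67537619-67537838, plus strand): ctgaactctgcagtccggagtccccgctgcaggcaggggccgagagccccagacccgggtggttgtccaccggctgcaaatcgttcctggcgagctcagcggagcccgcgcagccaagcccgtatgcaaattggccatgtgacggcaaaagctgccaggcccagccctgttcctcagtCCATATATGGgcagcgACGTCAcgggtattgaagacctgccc
Klf2 (chr8:72318812-72319031, plus strand): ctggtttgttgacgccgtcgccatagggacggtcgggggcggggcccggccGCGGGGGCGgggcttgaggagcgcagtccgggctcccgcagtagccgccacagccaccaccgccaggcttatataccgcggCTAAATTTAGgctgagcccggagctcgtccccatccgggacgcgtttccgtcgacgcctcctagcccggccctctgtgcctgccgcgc
Klf4 (chr4:55532506-55532725, minus strand): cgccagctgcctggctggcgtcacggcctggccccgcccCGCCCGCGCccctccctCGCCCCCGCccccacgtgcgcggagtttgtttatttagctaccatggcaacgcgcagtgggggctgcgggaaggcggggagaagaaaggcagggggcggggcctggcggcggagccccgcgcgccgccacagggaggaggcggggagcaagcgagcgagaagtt
Ier3 (chr17:35821463-35821682, plus strand): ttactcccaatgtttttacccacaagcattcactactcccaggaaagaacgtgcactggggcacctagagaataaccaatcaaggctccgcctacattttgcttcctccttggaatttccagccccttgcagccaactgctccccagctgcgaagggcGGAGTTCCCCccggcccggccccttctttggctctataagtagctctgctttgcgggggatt

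The Egr2 window held 1 CArG box, CCATATATGG, starting 72 bases before the start site, and 1 CRE core 56 bases before it, which overlaps a match to the antioxidant response element (TGACNNNGC). A CArG box occurred in 1.47% of the 32851 RefSeq windows of the same 250 bases, a CRE core in 6.47% and an antioxidant response element in 10.2%. The Klf2 window held 1 MEF2 site (0.508% of windows) and 1 EGR site, and the Klf4 window held 2 EGR sites (4.7% of windows), all of which overlap GC boxes (GGGCGG, in 32.7% of windows). The GC content over the 250 bases was 71.2% for Klf2 and 74.0% for Klf4. The Ier3 window held 1 NF-κB site (3.9% of windows), starting 92 bases before the start site. Of the 7 members with a window, Egr2 was the 1 with a CArG box. Egr1, Egr3 and Klf10 had no window, so they were not searched. Such matches describe the letters of these windows and do not show that a factor bound there.

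The unit of the values is RPKM, reads on a gene scaled by the length of its transcript and by the mapped reads of the library. This scaling allows for length and depth, but not for differences in the make-up of the libraries, such as the Rn45s share given below. Whole reads recovered from these values put the depth at 29390253 to 34846471 mapped reads per library. Between 4.97% and 13.5% of the reads on genes came from the ribosomal RNA precursor Rn45s, with the lowest shares in -R. All 8 macrophage markers chosen for the check reached 1 RPKM in at least 1 library, with a summed level of 6732 to 7319 RPKM in -R, against 2692 to 3455 in +R and 3764 to 4206 with LE. Most of that sum was Lyz2, and single markers differed, since Itgam was 69.6 and 71.4 RPKM in -R but 79.7 to 105.7 in the libraries with RANKL, and Cd68 was lower with LE (376.0 and 297.0) than in +R (467.8 and 422.1). The 10 osteoclast markers summed to 43.4 to 45.0 RPKM in -R, against 1951 to 2222 in +R and 346.2 to 402.0 with LE. Of other cell types, the megakaryocyte and platelet list was higher in -R, at 119.9 to 124.1 RPKM, nearly all Pf4, against 6.00 to 18.3 in the other libraries. Its other genes, Ppbp, Itga2b and Gp9, were under 1 RPKM in every library. The neutrophil list was also higher in -R, at 15.6 to 17.5 RPKM against 0.592 to 2.53, with 6 of its 8 genes under 1 RPKM in every library. The B cell list was at most 1.96 RPKM in any library, the T cell list at most 0.265 and the erythroid list, with 5 of its 7 genes at 0 throughout, at most 0.583. The endothelial list, of interest because Klf2 and Klf4 are strongly expressed in endothelium, was 2.47 RPKM in both -R libraries, 2.03 to 2.18 in +R and 0.803 to 0.840 in R+LE, and 4 of its 5 genes were under 1 RPKM in every library. Its main gene, Kdr, was 1.25 and 1.31 RPKM in -R, higher in +R (1.83 and 2.01) and lowest in R+LE (0.526 and 0.576). The stromal list was 14.8 to 16.2 RPKM in -R, against 9.82 to 13.8 in +R and 8.09 to 9.50 with LE. The part of these markers in the differences below was not tested, and in bulk libraries a change in the number of cells of a type and a change in RNA per cell cannot be told apart.

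Klf6 was the most abundant member in each condition and the EGR genes were among the least abundant. In -R the order by mean RPKM was Klf6, Klf2, Klf10, Klf3, Klf13, Ier3, Klf4, Egr1, Egr2 and Egr3, and Egr1 and Egr2 were the only neighbours whose libraries overlapped. In +R the order was Klf6, Klf10, Klf13, Klf3, Klf4, Klf2, Egr2, Egr1, Egr3 and Ier3, so Klf2 stood below Klf4 and Ier3 was the last. There, the libraries of Klf13 and Klf3, of Klf3 and Klf4, of Klf2 and Egr2, and of Egr3 and Ier3 overlapped. In R+LE the order was Klf6, Klf10, Klf4, Klf2, Klf13, Klf3, Ier3, Egr2, Egr1 and Egr3, with overlaps between Klf2 and Klf13 and between Klf13 and Klf3.

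**Figure D1:**
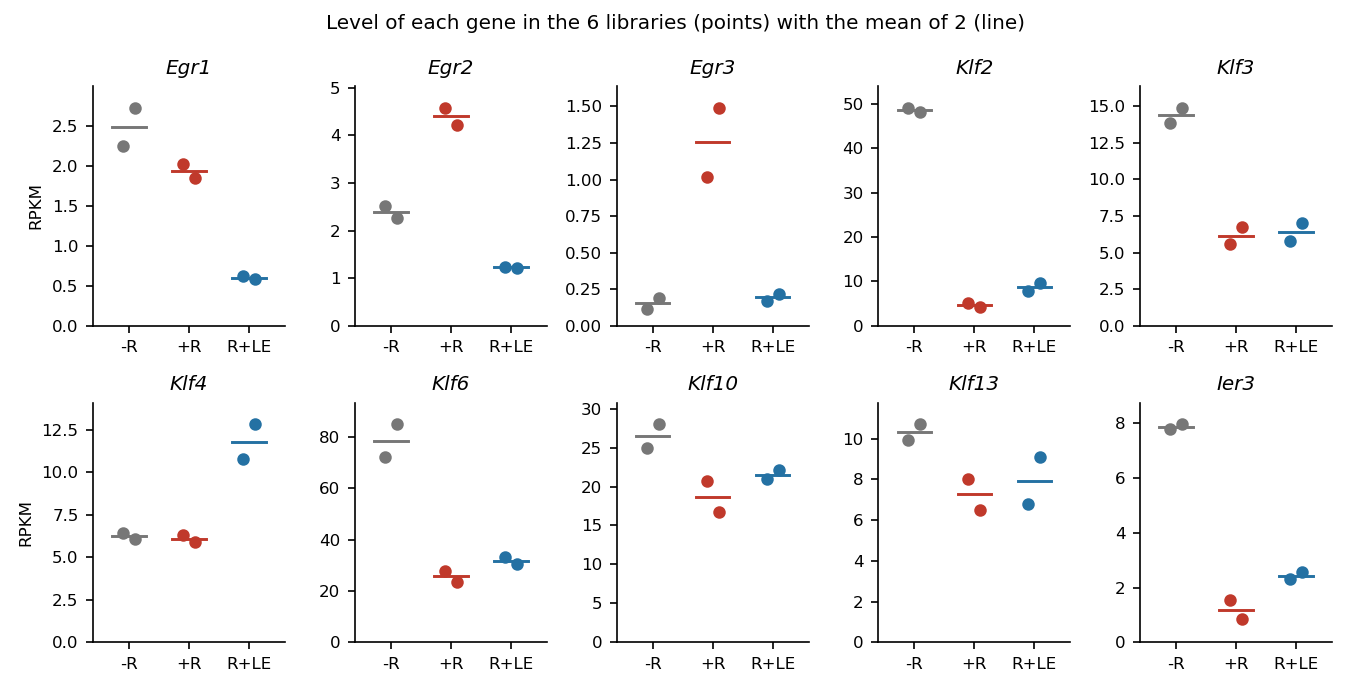
RPKM of each of the 10 genes in the 6 libraries, with 1 point per library and a line at the mean of the 2 libraries of -R, +R and R+LE; each panel has its own axis from 0. Egr1 and Egr2 are lowest in R+LE, most KLF panels and Ier3 are highest in -R, and Klf4 is highest in R+LE.

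The first comparison, +R against -R, asks which members differ after RANKL. Klf2, Klf6, Klf3 and Ier3 fell by 2-fold or more, and Klf10 and Klf13 fell by less. Egr3 and Egr2 rose, while Egr1 and Klf4 did not pass the test. A gene was said to pass at an adjusted p-value below 0.05 in limma (Benjamini-Hochberg over the 11595 tested genes, those with a mean of at least 0.5 RPKM), and was called if the fold change was also at least 2. All 10 members were tested, Egr3 only through its level in +R. Of them, 5 were called, against 15.5% of all tested genes, with 1 higher (6.58% of all genes) and 4 lower (8.92%). The 1 higher is Egr3, and with a minimum mean of 1 RPKM, which removes it, 4 of 9 were called. Without the fold threshold 8 of 10 passed, 2 higher and 6 lower, against 45.4% of all genes. The median log2 difference of the 10 members was -0.49, against 0.05 for all tested genes. Both libraries of one condition lay on one side of the other for 9 of 10 members (2 higher, 7 lower), as they did for 75.2% of all genes (40.3% higher, 35.0% lower), and an exact permutation test of 2 libraries against 2 cannot give a two-sided p below 0.333, so the calls depend on the spread that limma borrows from the other genes.

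Klf2, which restrains inflammatory activation of monocytes and keeps T cells quiescent, had the largest difference. The gene lies on chromosome 8 of mm10 from 72319062 to 72321654. It was 49.1 and 48.1 RPKM in -R, against 5.07 and 4.33 in +R and 7.75 and 9.65 with LE. The -R libraries were thus far above the other 4, and both R+LE libraries were above both +R libraries. The mean fell from 48.6 ± 0.660 to 4.70 ± 0.522 RPKM (mean ± SD of 2 libraries, n = 2), a log2 difference of -3.24 (SE 0.15, limma adjusted p = 1.52e-10). Between 241 and 3038 reads lay on the gene in each library.

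Klf6, a factor first known for its induction in injured tissue, lies on chromosome 13 from 5861489 to 5870393 and was 72.0 and 84.9 RPKM in -R, against 27.8 and 23.6 in +R and 33.1 and 30.5 with LE. No -R library came near the other 4. Its log2 difference with RANKL was -1.59 (SE 0.15, limma adjusted p = 4.89e-07). Klf3, a repressor that recruits CtBP corepressors, was 13.8 and 14.9 RPKM in -R, against 5.57 and 6.74 in +R and 5.81 and 7.02 with LE. The +R and R+LE libraries of Klf3 overlapped and all 4 were below -R, with a log2 difference of -1.16 with RANKL (limma adjusted p = 1.25e-05). Klf3 lies on chromosome 5 from 64803523 to 64830129 and shares 269 exonic bases with Gm20033 on the opposite strand, and the counting did not separate strands.

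Ier3, which encodes a small early response protein that affects cell survival downstream of ERK and NF-κB, also fell with RANKL. It lies on chromosome 17 from 35821713 to 35822911, and the window with the NF-κB site shown above is that of this gene. It was 7.77 and 7.95 RPKM in -R, against 1.53 and 0.840 in +R and 2.30 and 2.57 with LE. The 3 conditions did not overlap, and the +R libraries, with 51 and 28 reads, differed most from each other. Its log2 difference with RANKL was -2.34 (SE 0.19, limma adjusted p = 7.59e-08).

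Klf10, first described as a gene induced early by TGF-β, and Klf13, a regulator of Ccl5 in T cells, differed less. Klf10 lies on chromosome 15 from 38294406 to 38300711 and Klf13 on chromosome 7 from 63886351 to 63938915. Klf10 was 24.9 and 28.0 RPKM in -R, against 20.7 and 16.7 in +R and 21.0 and 22.1 with LE. Klf13 was 9.96 and 10.7 RPKM in -R, against 8.04 and 6.51 in +R and 6.78 and 9.11 with LE, so that its 2 R+LE libraries enclosed 1 of the +R libraries. With RANKL the log2 difference was -0.49 for both genes (adjusted p = 0.0122 for Klf10 and 0.0224 for Klf13 in limma). Neither held in every setting. The adjusted p of Klf10 was 0.119 without -R replicate 2 and 0.187 without +R replicate 2, and that of Klf13 was 0.0798 without -R replicate 1, 0.138 without -R replicate 2, 0.179 without +R replicate 2 and 0.104 with no filter on low values (limma, each time).

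Among the EGR genes, Egr3 had the largest rise and the lowest level. It lies on chromosome 14 from 70077445 to 70082613, and was 0.114 and 0.193 RPKM in -R (13 and 26 reads), 1.02 and 1.49 in +R (121 and 177 reads), and 0.172 and 0.221 in R+LE (21 and 26 reads). Both +R libraries were above the other 4, which overlapped. The ratio of the mean RPKM values was 8.17, but log2(RPKM + 0.5) compresses such low values, and the log2 difference on that scale was 1.41 (SE 0.24, limma adjusted p = 0.000207). It was 2.41 with a pseudocount of 0.1, 2.99 with voom on the recovered reads and 0.96 with a pseudocount of 1, which is under 2-fold and left 4 members called with RANKL. With a mean of 0.535 RPKM over the 6 libraries Egr3 passed the filter of 0.5 RPKM only through its values in +R, so a gene with this level had to differ to be tested at all.

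Egr2, also called Krox20 and known for its part in myelination, lies on chromosome 10 from 67537869 to 67542188. It was 2.52 and 2.27 RPKM in -R, against 4.58 and 4.21 in +R and 1.24 and 1.22 with LE. The 3 conditions were fully apart, with +R on top and R+LE lowest. Its log2 difference with RANKL was 0.76 (SE 0.16, limma adjusted p = 0.00109), which is under 2-fold. Egr1, the best known immediate early gene of the family, lies on chromosome 18 from 34861207 to 34864956 and was 2.25 and 2.72 RPKM in -R, against 2.02 and 1.85 in +R and 0.619 and 0.589 with LE. Although both +R libraries lay below both -R libraries, its log2 difference with RANKL was -0.29 (95% interval -0.67 to 0.09, limma adjusted p = 0.199).

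Klf4, which drives monocyte differentiation and is also a stem cell reprogramming factor, was the remaining member without a difference that passed. It lies on chromosome 4 from 55527137 to 55532475. It was 6.44 and 6.10 RPKM in -R, against 6.34 and 5.89 in +R and 10.8 and 12.8 with LE. The -R and +R libraries were interleaved, and the log2 difference with RANKL was -0.03 (95% interval -0.34 to 0.27, limma adjusted p = 0.861). The sign of this small difference changed with the setting, from -0.08 to 0.02.

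**Figure D2:**
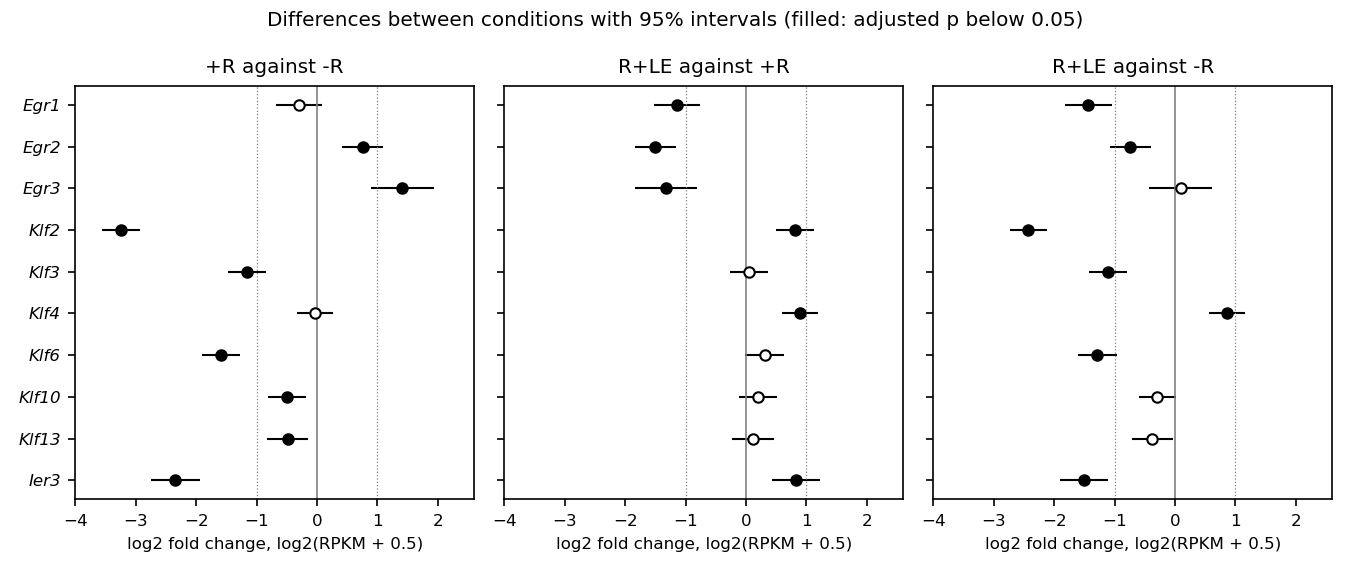
Log2 fold change on the log2(RPKM + 0.5) scale with its 95% interval from limma for each gene in the 3 comparisons; filled points have an adjusted p below 0.05 and dotted lines mark a 2-fold change. In the middle panel the 3 EGR genes lie between -1.50 and -1.14, and Klf2, Klf4 and Ier3 lie between 0.82 and 0.89.

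The second comparison, R+LE against +R, asks what differs when LE is given together with RANKL. All 3 EGR genes fell by more than 2-fold, and Klf4, Ier3 and Klf2 rose by less than 2-fold on the log2(RPKM + 0.5) scale. The other 4 members, Klf3, Klf6, Klf10 and Klf13, did not pass. Thus 3 of the 10 members were called, against 3.23% of all tested genes, and all 3 were lower, against 1.78% of all genes. With a pseudocount of 0.1 and with voom Ier3 was also called, as higher. The 3 include Egr3, which was tested only because of its level in +R, and with a minimum mean of 1 RPKM, which removes it, 2 of 9 were called. Without the fold threshold 6 of 10 passed, 3 higher and 3 lower, against 12.0% of all genes (5.19% higher, 6.86% lower). The libraries did not overlap for 8 members, against 49.0% of all genes. The median log2 difference of all tested genes was -0.05.

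Egr2 fell by 1.50 on the log2 scale (SE 0.16, limma adjusted p = 1.46e-05), from 4.39 ± 0.257 to 1.23 ± 0.015 RPKM (mean ± SD of 2 libraries, n = 2). Egr3 fell by 1.32 (SE 0.24, limma adjusted p = 0.00187), from 1.25 ± 0.333 to 0.197 ± 0.035 RPKM (mean ± SD of 2 libraries, n = 2). Its log2 difference was -2.17 with a pseudocount of 0.1 and -2.64 with voom, so that whether Egr2 or Egr3 fell more depended on the setting. Egr1 fell by 1.14 (SE 0.18, limma adjusted p = 0.000543), from 1.93 ± 0.120 to 0.604 ± 0.021 RPKM (mean ± SD of 2 libraries, n = 2). Its difference with RANKL had not passed the test. For each of the 3 genes both R+LE libraries were below both +R libraries, as they were for 29.5% of all tested genes. With a pseudocount of 1 the fold changes of Egr1 and Egr3 dropped below 2-fold, to log2 values of -0.87 and -0.91, which left Egr2 as the 1 member called, while all 3 kept an adjusted p below 0.05 in limma in all 17 alternatives for Egr1 and Egr2 and all 16 for Egr3.

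Klf4 rose with LE from 6.11 ± 0.320 to 11.8 ± 1.44 RPKM (mean ± SD of 2 libraries, n = 2), a log2 difference of 0.89 (SE 0.14, limma adjusted p = 0.000563). Klf2 rose by a log2 difference of 0.82 (limma adjusted p = 0.0016), from 4.70 to 8.70 RPKM, which left it far below its level in -R. The ratio of Klf4 to Klf2 within a library, which does not depend on how libraries are scaled, was 0.131 and 0.127 in -R, against 1.25 and 1.36 in +R and 1.39 and 1.33 with LE. It thus overlapped between +R and R+LE, with both genes higher after LE. Ier3 rose by 0.83 (SE 0.19, limma adjusted p = 0.00784). That rise rests in part on the lower +R library, since the log2 difference was 0.53 (adjusted p = 0.107) without +R replicate 2, and the adjusted p was 0.138 with no filter on low values (limma, both), within a range of 1.93e-05 to 0.138 over the 17 alternatives.

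Among the members that did not pass, Klf6 had a log2 difference of 0.31 (95% interval -0.01 to 0.63, limma adjusted p = 0.235), with both R+LE libraries above both +R libraries. It passed in 1 of 17 alternatives, with quantile normalization (limma adjusted p = 0.038, range 0.038 to 0.767). For Klf3 the log2 difference was 0.06 (95% interval -0.26 to 0.37), for Klf10 0.20 (-0.11 to 0.52) and for Klf13 0.11 (-0.23 to 0.46). These intervals still hold changes up to the bounds given, so they do not show that LE left these genes alone.

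The third comparison, R+LE against -R, asks whether cells given RANKL and LE differ from cells given neither. Klf2, Ier3, Egr1, Klf6 and Klf3 were 2-fold or more lower in R+LE, Egr2 was lower by less, and Klf4 was higher. Of the 10 members 5 were called, all lower, against 10.3% of all tested genes in either direction and 6.36% lower. Without the fold threshold 7 passed, 1 higher and 6 lower, against 34.3% of all genes (15.3% higher, 19.0% lower). The libraries did not overlap for 9 members, against 65.5% of all genes. This comparison shares its libraries with the other 2 and is no separate evidence for them.

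Egr1 and Egr2 ended below the level of cells that never saw RANKL. The log2 difference was -1.43 for Egr1 (SE 0.18, limma adjusted p = 1.62e-05), a ratio of mean RPKM of 4.12, and -0.74 for Egr2 (adjusted p = 0.00193), a ratio of 1.94. Egr3 averaged 0.154 ± 0.056 RPKM without RANKL and 0.197 ± 0.035 with RANKL and LE (mean ± SD of 2 libraries, n = 2), with overlapping libraries and a log2 difference of 0.09 (95% interval -0.42 to 0.61, limma adjusted p = 0.802). Klf4 was the only member that passed as higher than in -R, by a log2 difference of 0.86 (limma adjusted p = 0.000217), and its R+LE libraries were above the other 4.

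Of the 6 members that had fallen with RANKL, Klf2, Ier3, Klf6 and Klf3 were still lower than in -R with LE. The log2 difference against -R was -2.42 for Klf2 (adjusted p = 7.62e-09), -1.51 for Ier3 (adjusted p = 1.41e-05), -1.28 for Klf6 (adjusted p = 7.72e-06) and -1.11 for Klf3 (adjusted p = 3.21e-05, limma for all 4). For Klf10 it was -0.29 (95% interval -0.60 to 0.02) and for Klf13 -0.37 (-0.72 to -0.03), with adjusted p-values of 0.144 and 0.0879 in limma. Klf13 passed with voom (adjusted p = 0.0286) and without R+LE replicate 2 (0.0167), within a range of 0.0167 to 0.479 over the 17 alternatives.

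Summed over the family, the EGR genes were 4.88 and 5.18 RPKM in -R, against 7.61 and 7.55 in +R and 2.03 and 2.03 with LE. Egr4 added nothing, as it was listed at 0 in all 6 libraries. The make-up of this sum also differed. Egr1 held 46.1% and 52.5% of it in -R, but only 26.5% and 24.5% in +R and 30.5% and 29.0% with LE, while Egr3 held 2.34% and 3.72% in -R, against 13.4% and 19.7% in +R and 8.47% and 10.9% with LE. The ratio of Egr2 to Egr1 was 1.12 and 0.833 in -R, against 2.27 and 2.28 in +R and 2.01 and 2.07 with LE, so -R was well below the 4 libraries with RANKL.

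The 17 KLF genes in the table summed to 196.4 and 213.0 RPKM in -R, against 95.6 and 85.1 in +R and 108.0 and 115.9 with LE. Klf2 and Klf6 together made up most of the drop. Klf2 held 25.0% and 22.6% of the sum in -R, against 5.31% and 5.09% in +R and 7.18% and 8.32% with LE. The share of Klf4 went from 3.28% and 2.87% in -R to 6.63% and 6.92% in +R and 10.0% and 11.1% with LE. Its own level was 6.27 RPKM in -R and 6.11 in +R on average, while the sum was lower in +R.

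**Figure D3:**
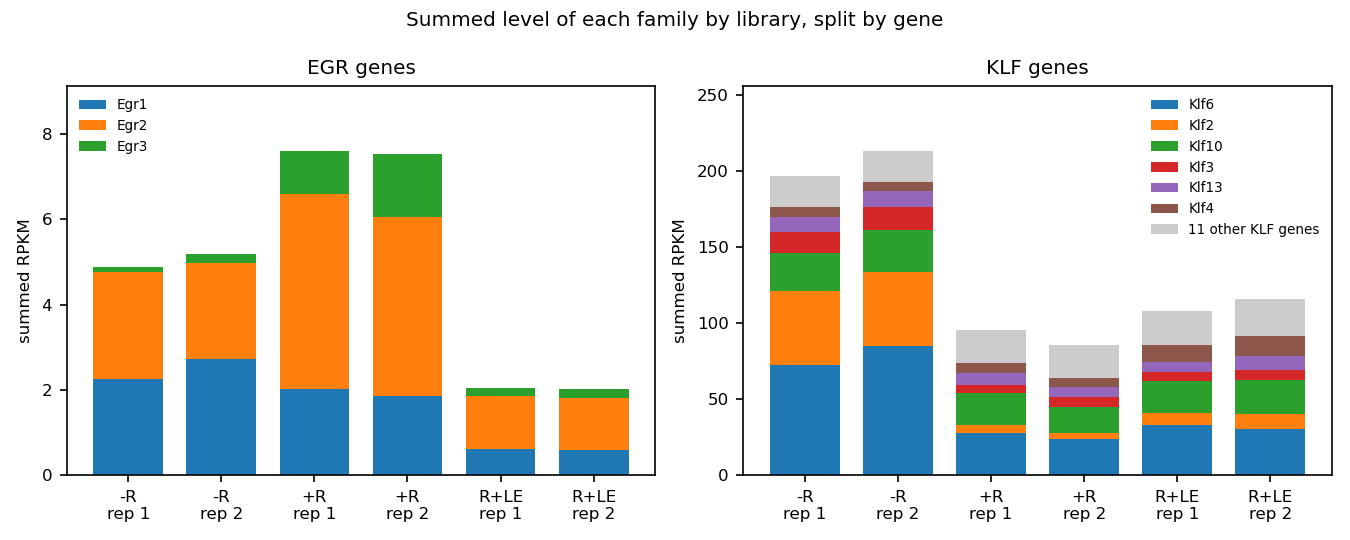
Summed RPKM of the EGR genes (left) and of the 17 KLF genes (right) in each library, stacked by gene. The EGR sum is 7.61 and 7.55 RPKM in +R and 2.03 in both R+LE libraries, and the KLF sum is 196.4 and 213.0 RPKM in -R and at most 115.9 in the others.

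Other genes of the same families and pathway were taken from lists of the families. Of the 11 other KLF genes, 6 were tested and the other 5 lay below the filter. With RANKL 2 were higher, 2 were lower and 2 did not pass, where 23.9% of all genes were higher and 21.5% lower. Klf5, a factor of proliferating epithelium, rose from 0.079 and 0.033 RPKM to 0.891 and 1.44 (ratio of means 20.8, log2 difference 1.56, limma adjusted p = 0.000807). Like Egr3, it passed the filter only through the libraries with RANKL. Klf7 rose from 4.22 and 3.75 to 8.79 and 8.15 RPKM (ratio of means 2.12, limma adjusted p = 2.62e-05). Klf11, a close relative of Klf10, fell by 0.95 on the log2 scale (adjusted p = 0.000647) and Klf16 fell by 0.34 (adjusted p = 0.0483). With LE none of the 6 passed (12.0% of all genes did). Between R+LE and -R, Klf5, Klf7 and Klf8 were higher and Klf11 was lower. Of the 9 related SP genes 4 were tested, and Sp3 alone passed, lower with RANKL by 0.38 on the log2 scale (limma adjusted p = 0.0383).

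Nab1 and Nab2, partners of the EGR proteins, and the 6 SRF factors, which act upstream of EGR genes, were tested in the same fit. Egr4 and Wt1, in the same list as Nab1 and Nab2, lay below the filter. Nab2, an EGR corepressor that is itself a known EGR target, was 15.2 and 13.6 RPKM in -R, against 8.27 and 7.83 in +R and 6.66 and 6.06 with LE. Its log2 difference was -0.80 with RANKL (adjusted p = 0.000212), -0.32 with LE (adjusted p = 0.167) and -1.12 between R+LE and -R (adjusted p = 1.28e-05, limma for all 3). Nab1 passed in none of the 3 comparisons, at 16.0 to 20.9 RPKM in all libraries. Elk1 fell with RANKL by 0.41 (limma adjusted p = 0.029), while Srf and Mkl1 did not pass with RANKL. With LE 1 of the 6 SRF factors, Elk3, passed, where 12.0% of all genes did. The log2 differences of the others with LE were -0.08 for Srf, 0.05 for Elk1, -0.11 for Elk4, -0.22 for Mkl1 and 0.30 for Mkl2. Elk3, a ternary complex factor that can act as a repressor, fell with RANKL from 28.4 and 30.2 to 12.4 and 11.2 RPKM. With LE it rose to 19.2 and 18.0 RPKM (log2 difference 0.64, limma adjusted p = 0.00535). It was still lower in R+LE than in -R (log2 difference -0.64, limma adjusted p = 0.00186). Elk4 rose with RANKL by 0.59 (limma adjusted p = 0.0033), and Mkl2, an SRF coactivator, fell by 1.60 (adjusted p = 2.3e-07).

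A list of 42 other early response genes sets the members in context, and 38 of them were tested. With RANKL 10 were higher and 23 lower, where 23.9% and 21.5% of all genes were, and the median log2 difference was -0.74. Fosb, counted as lower here and between R+LE and -R, passed the filter only through -R, so it had to be lower to be tested. It was 1.44 and 1.42 RPKM in -R, against 0.018 in both +R libraries and 0.087 and 0.054 with LE. Of the 38 genes, the 4 with the largest changes were Atf3 (-4.23), Plk2 (-3.36), Dusp1 (-3.00) and Bhlhe40 (2.88). Their adjusted p-values were 2.53e-11, 1.22e-10, 1.88e-10 and 3.91e-10 in limma. With LE 5 were higher, 9 were lower and 24 did not pass, with a median of -0.08, where 5.19% and 6.86% of all genes were higher and lower. The largest changes with LE were those of the AP-1 genes Fosl2, which fell from 61.6 and 60.5 to 20.1 and 19.5 RPKM (log2 difference -1.60, limma adjusted p = 1.65e-06), and Fosl1, which rose from 1.65 and 1.48 to 5.16 and 5.16 RPKM (1.46, adjusted p = 9.65e-06). Bhlhe40 fell by 1.32 and Atf3 rose by 1.11 on the log2 scale (adjusted p = 1.84e-05 and 0.000312 in limma). Between R+LE and -R 7 were higher and 22 lower (15.3% and 19.0% of all genes), led by Plk2 (-3.67), Atf3 (-3.12), Dusp1 (-2.49) and Nr4a1 (-2.09). Lists were chosen with results of these libraries known, and no test compared the members with them.

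**Figure D4:**
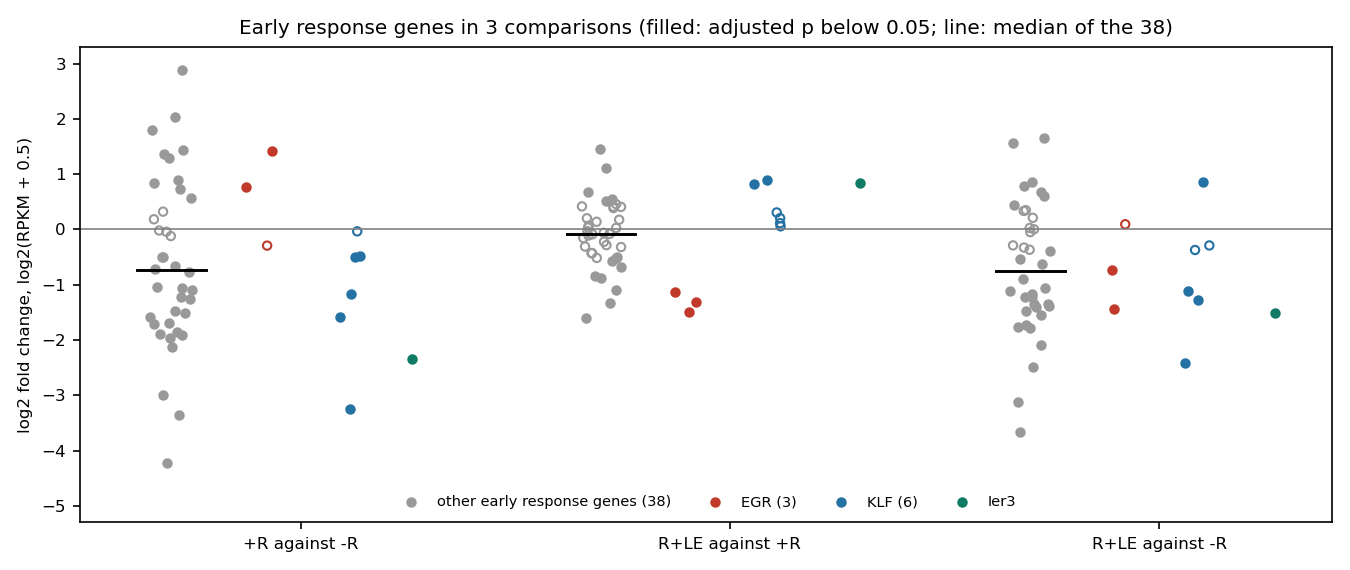
Log2 fold change of 38 other early response genes, the 3 EGR genes, the 6 KLF genes and Ier3 in the 3 comparisons, with filled points for an adjusted p below 0.05 in limma and a line at the median of the 38 genes. With LE that median is -0.08, and Egr1 and Egr2 lie at -1.14 and -1.50. Egr3, at -1.32, was tested only because of its level in +R.

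The gene with the profile most like each member was found by Pearson correlation of log2(RPKM + 0.5) over the 6 libraries, among 11594 other genes. It was Bcar3 for Egr1, Fuom for Egr2, Dcaf10 for Egr3, Selenow for Klf2, Mx1 for Klf3, Sema4a for Klf4, Ctsb for Klf6, Morf4l1-ps1 for Klf10, D730005E14Rik for Klf13 and Anxa11 for Ier3. The correlations lay between 0.987 and 0.999, as a description without a test, since 6 libraries in 3 pairs leave few degrees of freedom. Bcar3 had means of 10.9, 9.34 and 3.54 RPKM in the order -R, +R, R+LE, and Sema4a had 7.38, 7.21 and 14.5. The number of genes with a correlation above 0.95 ranged from 21 for Klf4 to 1030 for Klf6.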

How the data were processed

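RNA of mouse bone marrow-derived macrophages was sequenced by the authors in 6 libraries, 2 each of -R, +R and R+LE, grouped by the sample titles. Reads of 100 bp were aligned to mm10. The paper names TopHat as the aligner, and the submitters' processing notes list HISAT2, HOMER and DESeq2, with no versions. The authors deposited RPKM values made with HOMER from reads on the exons of either strand, with 1 transcript per gene, under column titles that say FPKM. All 26 gene symbols that had become dates were restored from transcript identifiers. Depth was recovered from the steps of the RPKM values. The check covered 10235 to 11093 non-zero values per library, those with little rounding error and not too many reads. Of these, at least 99.99% were whole reads within a tolerance of at most 0.12 reads. Values with many reads, such as those of Klf6, were not checked. The 2 libraries of a condition were not copies of each other, since the chi-square of their reads was 12.5 to 28.0 per gene.

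log2(RPKM + 0.5) was fitted over the 3 groups for the 11595 genes whose 6 libraries averaged 0.5 RPKM or more, with limma 3.58.1 in R 4.3.3 (empirical Bayes, variance trend), and adjusted by Benjamini-Hochberg over all of them. Python 3.11.15 (pandas 2.3.3, numpy 2.4.6) served for tables and matplotlib 3.10.9 for figures, and the fit was tested on simulated data. Alternatives were other pseudocounts, filters and scalings, no variance trend, the compared groups alone, a replicate block, voom on recovered reads and each library left out. The members and gene lists were chosen with earlier results of these data known. Named genes were the 10 members, the gene most like each, Nab1, Nab2 and the SRF factors. From each other list, up to 4 genes with the largest changes that passed were named. The motifs and printed windows were chosen after the values were seen.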

Additional observations from a re-analysis of the deposited data

How the results depend on the processing

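Over 17 alternatives (16 for Egr3, which a minimum mean of 1 RPKM removed), 18 of the 21 member differences with an adjusted p below 0.05 in limma stayed past it each time, and the exceptions were Klf10 and Klf13 with RANKL and Ier3 with LE. The number of members called with LE, 3, became 1 with a pseudocount of 1, 2 with a minimum mean of 1 RPKM, and 4 with a pseudocount of 0.1 and with voom. The member added in the last 2 settings was Ier3, called as higher. Its log2 differences there were 1.03 and 1.09 (limma adjusted p = 0.0085 and 0.0169). With RANKL the 5 members called became 4 with a pseudocount of 1 and with a minimum mean of 1 RPKM. With LE and 1 library left out the number was 3 to 4, and it was 5 in each case with RANKL and 4 to 5 between R+LE and -R. In all, 8 small log2 differences changed sign. Egr3 between R+LE and -R was -0.26 with quantile normalization. With LE, Klf3 was -0.071 without +R replicate 1 and -0.070 without R+LE replicate 2 (range -0.071 to 0.184 with 1 library left out), and Klf13 was -0.029 without +R replicate 2 and -0.087 without R+LE replicate 2 (range -0.087 to 0.314). With RANKL, Klf4 was 0.022 when Rn45s was left out of the depth, 0.0011 without -R replicate 1 and 0.014 without +R replicate 2 (range -0.084 to 0.014). The labels do not say that a replicate number marks a shared culture, and the numbers were not taken as pairs. The differences between replicates 1 and 2 correlated at -0.046 (-R and +R), 0.107 (-R and R+LE) and 0.249 (+R and R+LE), which leaves partial pairing possible, and the replicate block gave the same counts of members called, 5, 3 and 5. The medians of the libraries lay within -0.08 to 0.05 of their mean on the log2 scale. Depth limits Egr3 most, with 13 reads in its lowest library.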
